A study of Mus musculus with 9 samples.

Results

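The clustered replication-dependent histone genes encode the core histones H2A, H2B, H3 and H4, which form the nucleosome, and the linker histone H1, which binds between nucleosomes. Members were the genes whose name in GENCODE release M21 begins with Hist1h, Hist2h, Hist3h or Hist4h, with the gene whose name ends in -ps left out. They came to 69 of the 55385 genes in the deposited table. The table itself names 9 of them in this way and gives the other 60 newer symbols, so that Hist1h1c appears there as H1f2 and Hist1h2bc as H2bc4. By class there were 6 H1, 20 H2A, 18 H2B, 12 H3 and 13 H4 genes. The H2A members Hist1h2aj and Hist1h2al are annotated as pseudogenes, and neither had enough counts to test. Chromosome 13 held the 56 members named Hist1, the Hist2 cluster on chromosome 3 held 10, chromosome 11 held 2 and chromosome 6 held 1. Of the Hist1 members, the pseudogene Hist1h2al lies far from the cluster of the others.

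Replication-dependent histone genes are transcribed chiefly in S phase, when newly copied DNA needs histones. Most of their mRNAs end just past a conserved stem-loop, bound by the stem-loop binding protein Slbp, and carry no poly(A) tail. In cells that no longer divide, some of these genes are known to give longer, polyadenylated transcripts as well.

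The libraries were made from poly(A) RNA of mouse kidney, with 1 library per mouse and 3 mice per group. The labels give the strain as C57BL/6. By the study's methods the mice were C57BL/6J males, 8 to 10 weeks old. Control mice were untreated. HN mice, a model of hyperuricemic nephropathy, received adenine at 0.16 g/kg and potassium oxonate at 2.4 g/kg for 4 weeks, and PEC mice received the same agents with the flavonoid pectolinarigenin at 25 mg/kg. No sequenced group received pectolinarigenin without the model. Libraries are named here by group and replicate number (Control 2, 4 and 5, HN 4, 8 and 12, PEC 1, 2 and 3).

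Total counts were 57714111 to 81069646 per library. Mitochondrial genes took 13.3, 12.9 and 16.3% of the counts in the Control libraries, 6.01, 6.22 and 6.34% in HN, with 13.0, 10.3 and 13.6% in PEC. Genes annotated as rRNA took 0.0026, 0.0025 and 0.00163% in Control, 0.00192, 0.00283 and 0.0021% in HN, but 0.117, 0.682 and 0.119% in PEC. The tissue label is kidney, although the extraction protocol in the labels speaks of adipose tissue. Of the kidney markers Umod stood at 845 to 1385 FPKM over the 9 libraries, as a kidney label requires. Low counts were unevenly spread, with peaks near multiples of 4, so that a count of 8 was held by 489 to 700 genes per library and a count of 7 by 211 to 283. The spacing differed in PEC, where a count of 5 was held by 224 to 250 genes per library against 635 to 689 in Control and HN. All 3 PEC libraries lay apart from the other 6 in both respects, so that library handling and the PEC treatment cannot be told apart.

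The stem-loop was found in the annotated transcripts of 44 of the 69 members. The search was for a stem of 6 exactly paired bases that opens with GG, around a loop of 4 bases of the form TTTN. It was met by 118 of 141767 annotated mouse transcripts, from 79 genes, of which the 44 members were the larger part. The 44 members held 6 versions of the stem-loop, and the commonest was shared by 26 members of the classes H1, H2A, H2B and H3. All H4 members with a stem-loop held other versions. The sequences below are those of 12 of the members named in the comparisons that met the search. Part of their likeness, the pairing, the opening GG and the TTT of the loop, was set by the search itself. They are read 5′ to 3′ from GENCODE M21 transcripts, with the stem-loop in capitals.
Hist1h1c: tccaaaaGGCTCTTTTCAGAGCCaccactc
Hist1h1e: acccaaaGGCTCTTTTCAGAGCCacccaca
Hist3h2a: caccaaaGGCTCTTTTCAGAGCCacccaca
Hist2h2aa1: ctaaaaaGGCTCTTTTCAGAGCCacccact
Hist1h2bf: acccaaaGGCTCTTTTCAGAGCCacctacc
Hist1h2bg: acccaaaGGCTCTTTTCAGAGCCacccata
Hist2h3c2: ccacaaaGGCTCTTTTCAGAGCCaccacag
Hist1h3d: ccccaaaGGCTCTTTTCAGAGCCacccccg
Hist1h3e: ccaaaacGGCTCTTTTAAGAGCCacctcca
Hist1h4c: aacaaaaGGCCCTTTTCAGGGCCacccaca
Hist1h4h: aaccaaaGGCCCTTTTCAGGGCCgcccaca
Hist1h4i: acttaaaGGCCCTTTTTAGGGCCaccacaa

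Annotated transcripts ran more than 100 bases past the stem-loop in 22 of the 44 members, among them Hist1h1c (840 bases past it), Hist3h2a (1643) and Hist1h4i (330). In the other 22 the annotation ended within 100 bases, as in Hist1h4h (46) and Hist2h2aa1 (35). A poly(A) signal hexamer, AATAAA or ATTAAA, followed the stem-loop in 16 of the 44, among them those 3 longer examples and Hist1h4h. No stem-loop was found in the annotated transcripts of Hist1h2bc, Hist1h2ah, Hist1h2bn and Hist2h2be.

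Members share much of their sequence. Windows of 75 bases were unique to the gene, among all annotated transcripts, for a median of 54.3% of a member's windows, and fewer than 50% were unique in 32 members. All windows were unique in 5 members, which include Hist2h2be, whereas none was in Hist2h2aa1 and Hist2h3c1. Another annotated gene overlapped 26 members, on the other strand in 23 and on the same strand in 7. How the counting treated reads that match several genes, and whether it used strand, is not stated, so that counts of members with few unique windows or with an overlapping gene are uncertain.

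Many members were at or near the floor of detection in these libraries. The mean level over the 9 libraries was under 0.1 FPKM (fragments per kilobase of gene, scaled to the library by the authors) in 29 members, at least 1 in 14 and at least 10 in 5. Hist1h1b and Hist1h2aa had no count in any library, which allows up to 3 counts in each if each count is 1 read. The filter on low counts kept 37 members for testing. The 32 left out had mean levels of at most 0.238 FPKM, held no count above 53 in any library and made up 0.405% of all member counts, so that the tested members are not all members.

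The H2B and H1 classes held the most abundant members. Hist1h2bc, an H2B gene, stood at 142, 138 and 161 FPKM in Control, 109, 116 and 102 in HN and at 114, 96.97 and 93.6 in PEC. All 6 HN and PEC libraries were below all 3 Control libraries. The next H2B genes were Hist1h2bg and Hist2h2be. Hist1h2bg stood at 11.9, 29.9 and 2.17 FPKM in Control, 21.5, 18.7 and 18.8 in HN and at 14.3, 11.0 and 10.8 in PEC, and its Control libraries covered more than the whole range of the other groups. Hist2h2be was steadier, at 2.43, 2.15 and 2.96 FPKM in Control, 3.83, 4.09 and 3.97 in HN, with 3.07, 2.92 and 3.13 in PEC.

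Among the linker histones, Hist1h1c alone was abundant. It stood at 50.9, 41.1 and 47.5 FPKM in Control, 37.6, 63.9 and 51.1 in HN and at 48.3, 40.6 and 44.9 in PEC, with HN holding both the lowest and the highest library. Hist1h1e was far lower, at 0.49, 0.64 and 1.82 FPKM in Control, 0.24, 0.31 and 0.36 in HN, with 0.54, 0.28 and 0.18 in PEC. Its Control 5 library lay well above the other 8. Hist1h1d, the next in the class, averaged 0.0589 FPKM.

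Among the H2A genes, Hist3h2a from the small cluster on chromosome 11 led, at 11.5, 10.4 and 14.9 FPKM in Control, 11.3, 12 and 13.5 in HN, with 12.3, 9.53 and 11.7 in PEC. The groups overlapped on this scale. Hist3h2a overlaps Trim17 on the same strand and shares 635 of its windows with it, so that its counts may hold reads of Trim17. Hist2h2aa1 followed at a mean of 10.7 FPKM, which came from 4 libraries only and is described with its locus. Hist1h2ac averaged 0.406 FPKM, from 0.50, 0.16 and 0.55 in Control, 0.48, 0.56 and 0.40 in HN, with 0.24, 0.33 and 0.43 in PEC.

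The leading H4 and H3 genes were lower. Hist1h4i stood at 8.74, 7.74 and 9.01 FPKM in Control, 6.22, 7.76 and 4.05 in HN and at 4.39, 4.27 and 4.07 in PEC, and Hist1h4h at 8.89, 5.88 and 8.08, at 5.42, 7.64 and 5.30, and at 3.78, 3.30 and 4.33. For both, PEC lay below Control in every library while HN overlapped Control. Hist1h4c stood at 1.47, 2.93 and 2.23 FPKM in Control, 0.68, 0.53 and 0.84 in HN and at 1.24, 1.21 and 0.37 in PEC. Of the H3 genes, Hist2h3c1 averaged 3.31 FPKM and Hist2h3c2 2.95, both from the Hist2 locus, and Hist1h3d 0.154. Summed over all 13 H4 genes, the level was 21.1, 17.8 and 22.3 FPKM in Control, 14.1, 19.9 and 13.5 in HN, with 11.1, 10.5 and 10.4 in PEC.

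**Figure D1:**
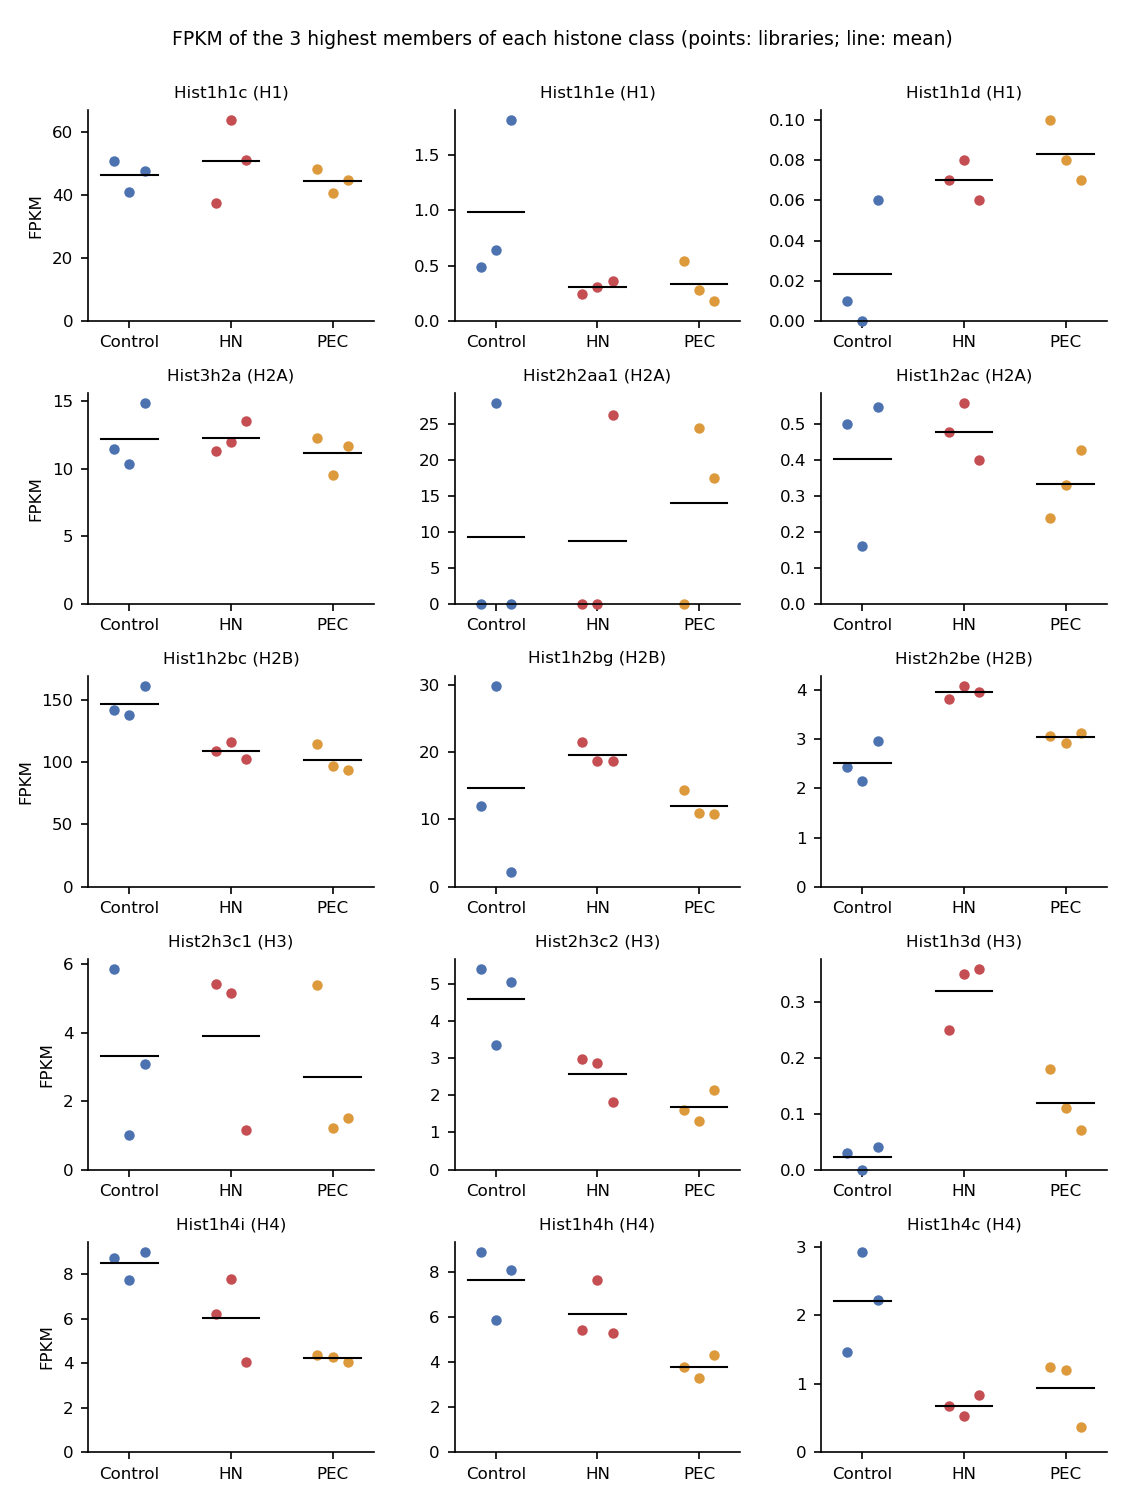
FPKM in each library (points) and group mean (lines) of the 3 members of highest mean FPKM in each histone class. Hist1h1e, Hist1h2bc, Hist1h4c and Hist2h3c2 were lower in all 3 HN libraries than in any Control library, and Hist2h2be and Hist1h3d were higher. Hist2h2aa1 was near 0 in 5 of the 9 libraries.

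HN was compared with Control to ask what the kidney model does to these genes. In HN kidneys, 7 of the 37 tested members fell and 1 rose, among them the most abundant member Hist1h2bc and the leading H4 genes. Hist1h2bc stood 1.95-fold lower than in Control (log2 fold change -0.97 ± 0.11 SE, 3 libraries a group), and Hist1h4i 2.04-fold lower. The H4 gene Hist1h4c stood 4.69-fold lower, and the linker histone gene Hist1h1e 4.73-fold lower, a size that rests in part on its high Control 5 library. A gene is counted here at a fold change of at least 1.5 and an adjusted p of at most 0.05 by the edgeR quasi-likelihood test with Benjamini-Hochberg adjustment over all 21392 genes tested. By this rule 32.4% of all genes tested changed, 17.7% higher and 14.7% lower, against 8 of 37 members (21.6%). The share lower among members, 18.9%, was near that of all genes. The median log2 fold change was -0.326 over the tested members and -0.001 over all genes tested, and 26 of the 37 members were below 0.

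These values rest on TMM scaling, which sets the bulk of genes equal between groups. Scaling by total counts alone moved the median of all genes by 0.557 in HN minus Control, by -0.199 in PEC minus HN and by 0.358 in PEC minus Control (log2), and the members moved with it, by 0.559, -0.199 and 0.363. Under total counts alone 22 of the 37 members were above 0 in HN minus Control, with a median of 0.245 against 0.556 over all genes. None of the 8 members changed sign, but Hist1h2bc (-0.40), Hist1h4h (-0.29) and Hist1h4i (-0.47) no longer passed the rule. Hist1h1e, Hist1h2ah, Hist1h4c and Hist2h3c2 fell under both scalings, and Hist1h3d rose under both. Hist2h2be, at 0.12 under TMM, rose by 0.68 under total counts alone, as did Hist1h2bf and Hist3h2ba, by 1.24 and 1.67.

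Hist1h2bc had 13553, 13099 and 15897 counts in Control and 10333, 12127 and 9821 in HN. Its adjusted p was 0.000156, and all 3 HN libraries were below all 3 Control libraries in FPKM. With 72.9% of its windows unique, it shares most of the rest with Hist1h2bg.

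Hist1h4c had 100, 198 and 157 counts in Control and 46, 39 and 57 in HN. It fell by 2.23 on the log2 scale (SE 0.48, adjusted p = 0.00488), with no overlap between the groups. Hist1h4i, with 525, 463 and 559 against 372, 509 and 245 counts, fell by 1.03 (SE 0.23, adjusted p = 0.00656). Hist1h4h, with 345, 228 and 324 against 210, 324 and 207 counts, fell by 0.85 (SE 0.24, adjusted p = 0.0187). For both of these H4 genes the groups overlapped in FPKM, which is scaled by total counts. The call of Hist1h4h was lost when Control 2, Control 5, HN 4 or HN 12 was left out, with log2 fold changes of -0.73, -0.78, -0.79 and -0.74.

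Hist1h1e had 78, 103 and 300 counts in Control and 39, 54 and 58 in HN. It fell by 2.24 on the log2 scale (SE 0.58, adjusted p = 0.0127), and every HN library was below every Control library. Without Control 5, which held 300 of its counts, the log2 fold change of Hist1h1e was -1.40 and still passed. Hist1h1e overlaps Hist1h2be and Gm11398 on the same strand, so that their reads may be shared. Hist1h2ah, an H2A gene with 8.46% of its windows unique, had 30, 17 and 34 counts in Control and 2, 8 and 9 in HN. Its fall of 2.65 (SE 0.73, adjusted p = 0.0171) no longer passed without Control 2 (-2.57), Control 5 (-2.44), HN 4 (-2.25) or HN 8 (-2.79). Hist1h2ah was kept by the filter on low counts through Control alone, so that the filter itself favoured a fall. Hist2h3c2, an H3 gene, had 456, 282 and 439 counts in Control and 251, 264 and 155 in HN, and fell by 1.38 (SE 0.30, adjusted p = 0.00535) with no overlap between the groups.

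The single rise was that of Hist1h3d, another H3 gene. It had 3, 0 and 4 counts in Control and 27, 39 and 38 in HN, a log2 fold change of 3.26 (SE 0.86, adjusted p = 0.0137). All HN libraries were above all Control libraries, though at no more than 0.36 FPKM. No Control library had enough counts for the filter, so that the filter itself favoured a rise. When the counts were divided by 4, an alternative chosen after seeing the data, Hist1h3d fell below the filter and was not tested, and no member rose by the edgeR rule, where DESeq2 on the counts as deposited found 1.

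Other leading members did not pass the test. Hist1h1c stood at a log2 fold change of -0.41 (SE 0.17, adjusted p = 0.0831) and passed without HN 8 (-0.60). Hist3h2a, at -0.54 (SE 0.16), had an adjusted p of 0.0263 but fell short of the fold limit, which it passed without Control 2 (-0.59), Control 4 (-0.66) or HN 12 (-0.59). Both were above 0 under total counts alone, at 0.15 and 0.03. Hist1h1d passed only without Control 5 (3.88), which raised the members higher from 1 to 2. At an unadjusted p of at most 0.05, 10 of the 37 members (27.0%) differed, against 49.1% of all genes tested.

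In bulk kidney, fewer cells that express a histone gene and less of its RNA per cell cannot be told apart.

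PEC was compared with HN to ask what pectolinarigenin changes in the model. Few members differed: the H2B genes Hist1h2bf and Hist1h2bn rose, each more than 3-fold, and the H3 gene Hist1h3e fell to no counts. None of the 5 most abundant members passed: Hist1h2bc stood at a log2 fold change of 0.11 ± 0.11 SE, Hist1h1c at 0.03 ± 0.17 and Hist3h2a at 0.08 ± 0.16 (3 libraries a group), each slightly below 0 under total counts alone. Hist1h2bg stood at -0.49 ± 0.66, with every PEC library below every HN library in FPKM, and Hist2h2aa1 at 0.92 ± 2.57. Of the 37 tested members 3 changed (8.11%), against 28.7% of all genes tested, of which 13.4% were higher and 15.3% lower. The median log2 fold change was -0.129 over the members, which stays the same with Hist1h3e set at its bound, and -0.015 over all genes. Under total counts alone the members' median was -0.317 and that of all genes -0.214, and the same 3 genes kept their signs.

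Hist1h2bf had 9, 15 and 7 counts in Control, 24, 19 and 31 in HN, with 78, 62 and 44 in PEC. Its log2 fold change over HN was 1.70 (SE 0.43, adjusted p = 0.0131). Every PEC library was above every HN library, and every HN library above every Control library. Hist1h2bn had 24, 14 and 20 counts in Control, 37, 15 and 32 in HN, with 71, 84 and 59 in PEC. Its log2 fold change over HN was 1.74 (SE 0.46, adjusted p = 0.0150). Here PEC stood above the other 6 libraries, which overlapped.

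Both H2B genes are short, with annotated transcripts of 461 and 381 bases, and have 43.4% and 27.7% of their windows unique. Hist1h2bf no longer passed without HN 8 (1.496) or PEC 1 (1.59), nor Hist1h2bn without PEC 2 (1.58), so that the count of members higher was 1 in each of these cases.

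Hist1h3e had 12, 2 and 5 counts in Control and 17, 16 and 3 in HN, and none in the 3 PEC libraries. With each count taken as 1 read and a floor of 3 over the group, it was at least 8.996-fold lower in PEC than HN under TMM. Under total counts this was 10.3-fold. Against Control it was at least 7.02-fold lower under TMM and 5.47-fold under total counts. The adjusted p values by edgeR with TMM were 0.0208 against HN and 0.0232 against Control. Low counts peak near multiples of 4, and the true bounds would be lower if 1 read gave several counts. The counts of Hist1h3e are low, at no more than 0.23 FPKM in any library, and the filter kept it through Control and HN libraries alone. Of its windows 40.6% are unique, the rest being shared mostly with Hist1h3f. The call against HN was lost without HN 8 or PEC 1, which left no member lower, and without HN 4, although 2 other members were then lower. The fitted log2 values, which are no bound, were -6.06, -6.29 and -5.87 in these cases against -6.30 with all libraries. With the counts divided by 4, or the 2 groups fitted alone, Hist1h3e fell below the filter and was not tested. At an unadjusted p of at most 0.05, 4 members (10.8%) differed between PEC and HN, against 47.8% of all genes tested.

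No H4 gene passed between PEC and HN by edgeR with all libraries. Hist1h4h stood at -0.46 ± 0.24 SE, Hist1h4i at -0.29 ± 0.23 and Hist1h4c at 0.69 ± 0.47 (log2). For Hist1h4h every PEC library was below every HN library in FPKM, and limma on log2(FPKM + 0.1) called it lower (-0.66). Hist1h4c passed without PEC 3 (1.10), the library with 20 of its counts against 86 and 73 in the other PEC libraries. Hist1h3d, which rose in HN, stood at 19, 11 and 6 counts in PEC and -1.14 ± 0.75 against HN (edgeR adjusted p = 0.262). Every PEC library was below every HN library in FPKM for Hist1h3d, and limma on log2(FPKM + 0.1) called it lower (-0.95).

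Genes with short transcripts were in general higher in PEC than in HN under TMM scaling. Over all tested genes with a longest transcript under 1000 bases (3290 genes), the median log2 fold change of PEC minus HN was 0.58, against 0.21 for 1000 to 2000 bases, -0.00 for 2000 to 4000 and -0.34 from 4000 bases on. The members did not follow this order. The 20 tested members under 1000 bases had a median of -0.38, and the 17 longer ones a median of 0.03. The part of transcript length in the changes of Hist1h2bf and Hist1h2bn was not tested.

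**Figure D2:**
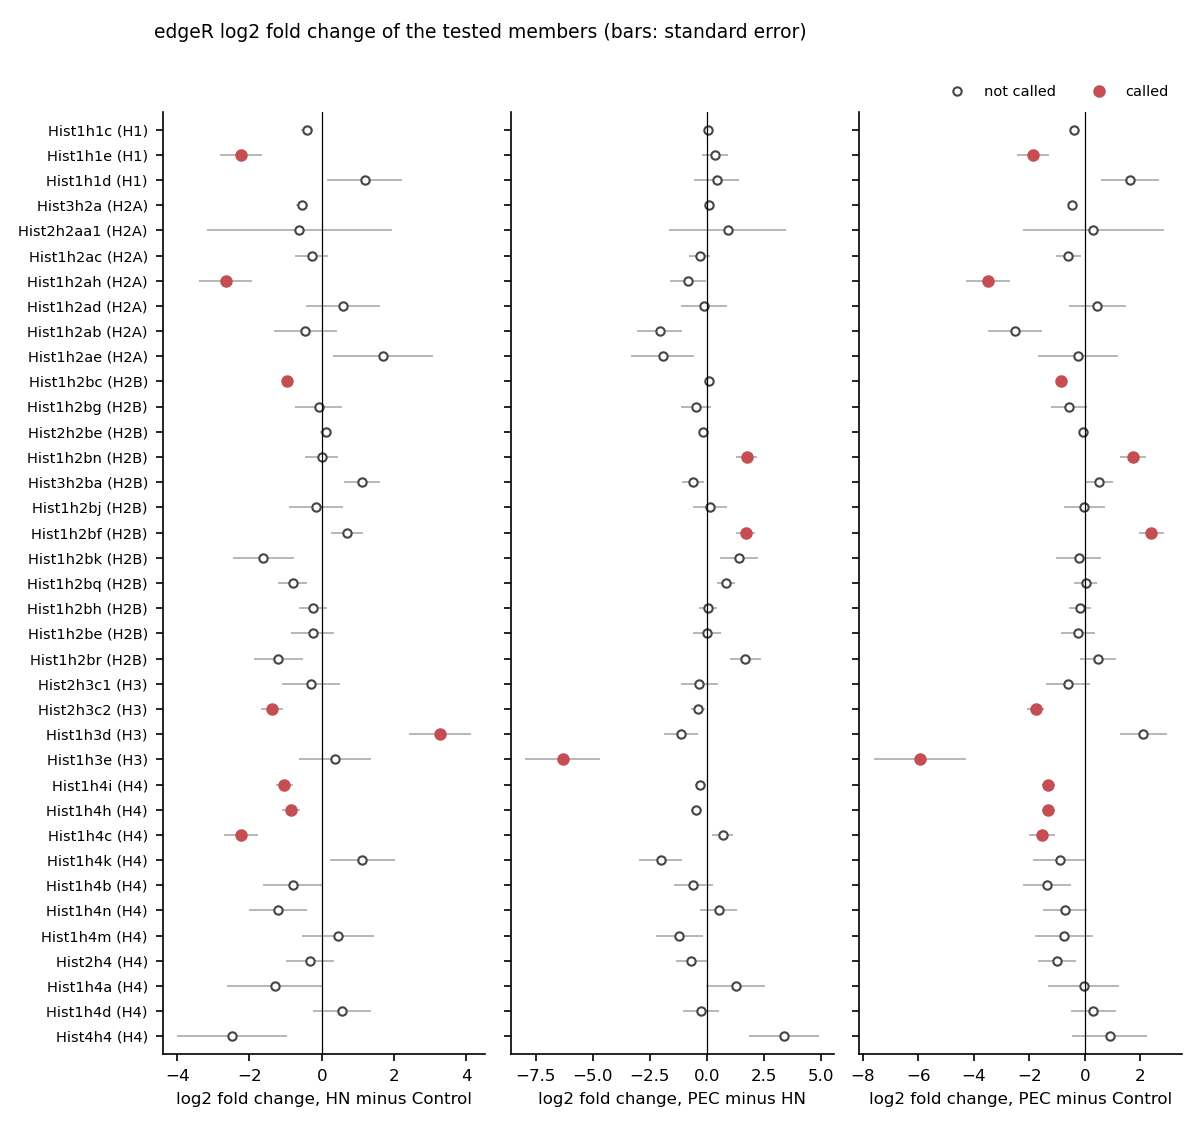
Log2 fold changes of the 37 tested members by edgeR with TMM scaling in the 3 comparisons, with bars of 1 standard error and filled points for members that passed the rule. Values of Hist1h3e against PEC, which had no counts there, are fitted values and no bound, and total counts alone would shift all points by about 0.56, -0.20 and 0.36.

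PEC was compared with Control to ask how treated kidneys stand against untreated ones. In PEC kidneys 8 tested members were lower and 2 higher. The H4 genes Hist1h4i and Hist1h4h each stood 2.49-fold lower, Hist1h2bc 1.81-fold lower and the H3 gene Hist2h3c2 3.42-fold lower, while the H2B genes Hist1h2bf and Hist1h2bn stood 5.26-fold and 3.33-fold higher (3 libraries a group). These 10 of 37 members (27.0%) compare with 36.4% of all genes tested, of which 18.9% were higher and 17.4% lower. The members' median log2 fold change was -0.379, which stays the same with Hist1h3e at its bound, against 0.045 over all genes. Under total counts alone the medians were -0.018 and 0.403, 18 of the 37 members were above 0, and none of the 10 changed sign. This comparison shares its Control libraries with the first and its PEC libraries with the second.

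Hist1h4i fell by 1.32 on the log2 scale (SE 0.24, adjusted p = 0.00172) and Hist1h4h also by 1.32 (SE 0.24, adjusted p = 0.00203). In both, every PEC library was below every Control library, under either scaling of the counts. Hist2h3c2, with 138, 96 and 144 counts in PEC, fell by 1.77 (SE 0.31, adjusted p = 0.00138), and Hist1h2ah, with 5, 2 and 1 counts, fell by 3.48 (SE 0.79, adjusted p = 0.00585). The filter kept Hist1h2ah through Control alone and so favoured this fall too. Hist1h2bc fell by 0.85 (SE 0.11, adjusted p = 0.000329), with all PEC libraries below all Control libraries, and under total counts alone by 0.49, short of the fold limit.

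Hist1h4c, at -1.54 (SE 0.47, adjusted p = 0.0243), and Hist1h1e, at -1.87 (SE 0.58, adjusted p = 0.0251), were less firm. Neither passed under total counts alone, at -1.18 and -1.49. Hist1h4c was also lost without Control 4 (-1.31) or Control 5 (-1.51), and Hist1h1e without PEC 2 (-1.75), PEC 3 (-1.57) or Control 5 (-1.04), the library where it was highest. For Hist1h3e the call was lost without Control 2 or PEC 1, with fitted log2 values, again no bound, of -5.14 and -5.94 against -5.95 with all libraries.

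Hist1h2bf (log2 fold change 2.39, SE 0.45, adjusted p = 0.00227) and Hist1h2bn (1.73, SE 0.46, adjusted p = 0.0130) were the 2 members higher. All PEC libraries were above all Control libraries for both. Hist1h3d stood at 2.12 (SE 0.86, adjusted p = 0.0715) and passed under total counts alone (2.47) and with DESeq2 (2.19). Hist1h2ac and Hist1h2bg passed as lower only without Control 4 (-0.98) and Control 5 (-1.09), and Hist1h1d as higher only without Control 5 (4.31). At an unadjusted p of at most 0.05, 13 members (35.1%) differed, against 53.6% of all genes tested.

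The sum over all members does not depend on how reads are divided among them. As CPM, the counts scaled to the total of each library, members together held 350.5, 342.1 and 367.4 in the Control libraries, 292.8, 352.0 and 320.4 in HN, with 319.0, 273.1 and 282.3 in PEC. The highest HN library lay within the Control range and the other 2 below it, and PEC lay below Control throughout. The log2 difference was -0.14 for HN minus Control (exact permutation p = 0.3, two-sided), -0.14 for PEC minus HN (p = 0.2 by the same permutation test) and -0.28 for PEC minus Control (permutation p = 0.1, the smallest that 3 against 3 libraries can give). With each library left out in turn, these differences ran from -0.21 to -0.07, from -0.21 to -0.07 and from -0.35 to -0.23. Of the summed counts 47.5% came from Hist1h2bc, 25.4% from Hist1h1c and 8.77% from Hist3h2a, so that the sum mostly follows these 3 genes.

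As summed FPKM the differences were -0.18, -0.16 and -0.34 (exact permutation p = 0.1, 0.2 and 0.1). With TMM-adjusted library sizes they were -0.70, 0.06 and -0.64 (permutation p = 0.1, 0.5 and 0.1), so that PEC minus HN changed sign. By both measures every HN and PEC library lay below every Control library. By total counts without Hist1h2bc, the difference of HN minus Control was 0.10, that of PEC minus HN -0.18 and that of PEC minus Control -0.08. Members whose annotated transcripts end within 100 bases of the stem-loop, the closest to the form without a tail, summed to 6.51, 23.5 and 7.20 CPM in Control, 5.45, 7.23 and 22.4 in HN and to 6.64, 20.1 and 15.7 in PEC. Their log2 differences were -0.11 for HN minus Control, 0.42 for PEC minus HN and 0.31 for PEC minus Control (permutation p = 0.8, 0.8 and 0.9). The 4 high libraries are those where Hist2h2aa1 was high. Without 4 Hist2 genes (Hist2h2aa1, Hist2h2aa2, Hist2h3c1 and Hist2h3c2), a step chosen after seeing the data, these short members summed to 6.51, 5.56 and 7.19, to 5.45, 7.13 and 5.16, and to 6.64, 4.15 and 4.09. The log2 differences were then -0.13, -0.28 and -0.40 (permutation p = 0.5, 0.3 and 0.3), so that both differences against PEC turned from above to below 0. The short members were a small part of the sum in every library.

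**Figure D3:**
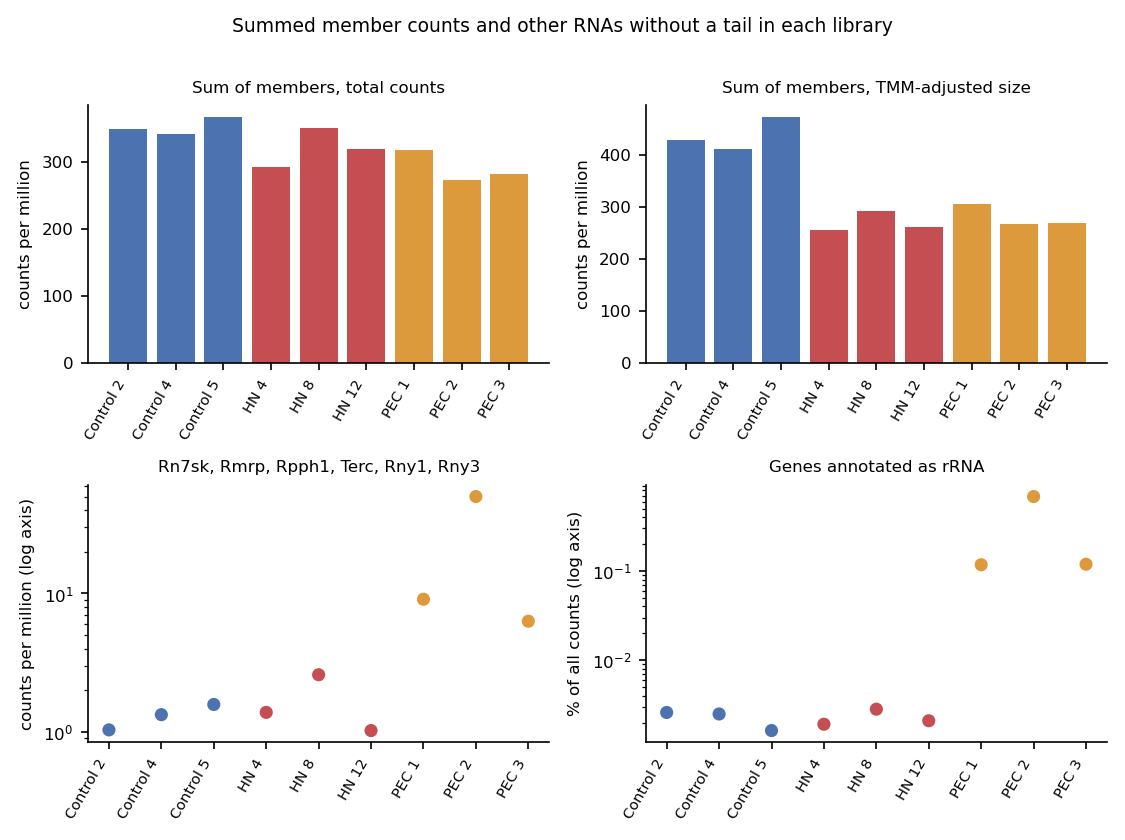
Upper panels show the summed counts of the 69 members as CPM, by total counts and by TMM-adjusted library sizes, in each library. Lower panels, on log axes, show the sum of 6 named RNAs without a poly(A) tail, mostly Rn7sk, Rmrp and Rpph1, and the share of counts in genes annotated as rRNA, and both are higher in all 3 PEC libraries than in the other 6.

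The pattern of the sum over the 9 libraries was most like that of Gm28085, Gm24597 and Prepl, with Pearson r of 0.92 for each, among 21355 other tested genes. The next 7 were Gm45606, 9230114K14Rik, 4933411K16Rik, Gm43653, Zfp101, Gm42944 and Gm27184, down to an r of 0.89. These are descriptions over libraries that share their groups and scaling.

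The Hist2 locus on chromosome 3 (GRCm38) holds near-identical copies of an H2A gene and an H3 gene, with noncoding genes over them. Hist2h2aa1 (96245497 to 96246082) had 0, 1347 and 1 counts in Control, 0, 0 and 1277 in HN, with 0, 1043 and 671 in PEC. Its copy Hist2h2aa2 had no count outside 8 in HN 8. Hist2h2aa1 was thus either at no more than 1 count or at 671 or more, with libraries of both kinds in each group, and none of its windows is unique.

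Hist2h3c1, close by on the same strand, had 886, 152 and 480 counts in Control, 814, 847 and 176 in HN, with 830, 162 and 180 in PEC. It was low in each of the 4 libraries where Hist2h2aa1 was high. Both overlap the noncoding gene Gm20634 on the same strand, which had 0, 451 and 7308 counts in Control, 0, 0 and 523 in HN, with 0, 321 and 337 in PEC, and was at 0 in the 4 libraries where Hist2h3c1 was highest. Placement of the same reads differently between libraries would bear on all 3 genes, and was not tested. Neither member passed the test in any comparison, and the standard error of Hist2h2aa1 was 2.56 (log2) in HN minus Control.

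Gm20632, which lies over Hist2h2aa2 on the other strand, had 3281, 2734 and 1158 counts in Control, 779, 620 and 538 in HN, with 431, 547 and 632 in PEC. Summed over the 4 members and the noncoding genes Gm20632, Gm20633 and Gm20634, the locus held 61.7, 66.6 and 122 CPM in Control, 25.1, 25.7 and 37.5 in HN, with 19.1, 34.7 and 34.5 in PEC. All HN and PEC libraries were below all Control libraries. With these 3 noncoding genes added to the sum of members, a step chosen after seeing the data, the log2 differences were -0.32 for HN minus Control, -0.13 for PEC minus HN and -0.46 for PEC minus Control. Hist2h3c2, which fell against Control in both HN and PEC, shares 592 of its windows with Gm20634, so that its fall is uncertain in the same way.

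**Figure D4:**
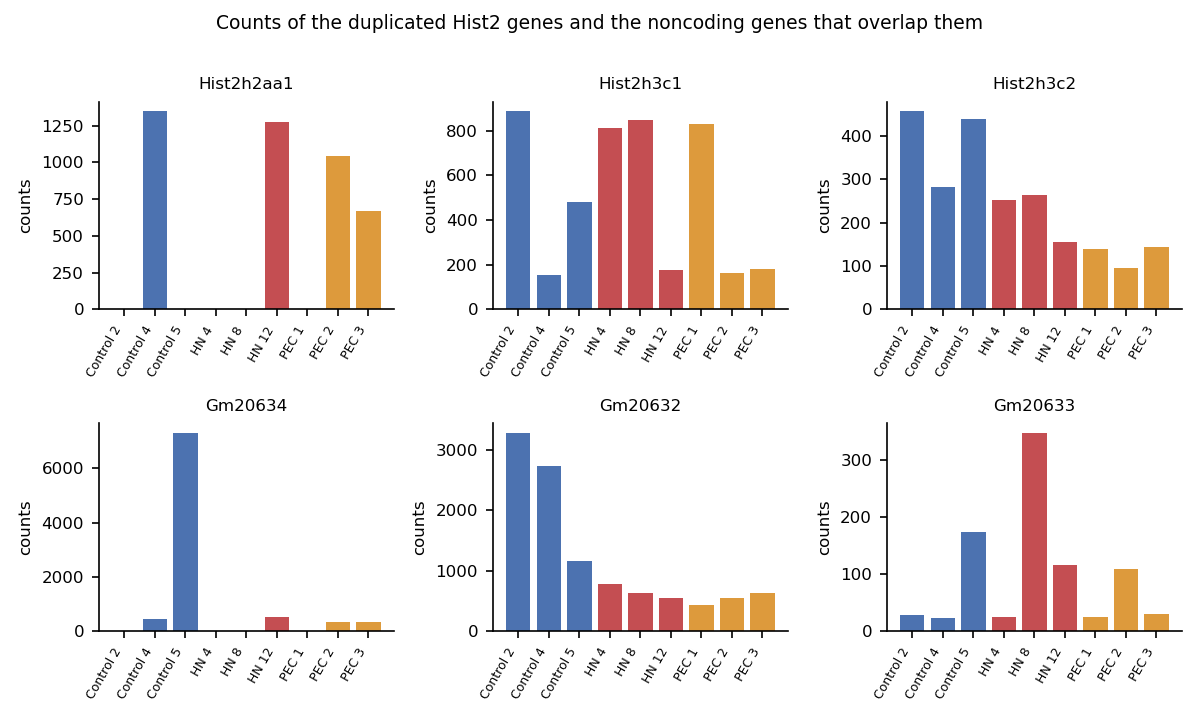
Counts in each library of 3 members of the Hist2 locus (upper panels) and of 3 noncoding genes that overlap the locus (lower panels). Hist2h2aa1 and Gm20634 are at 0 or near it in some libraries of every group, and Hist2h3c1 is low where Hist2h2aa1 is high.

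Most genes of S phase and mitosis rose in HN against Control, where most tested histone members were below 0 under TMM and 22 of 37 above 0 under total counts alone. Of 26 S phase genes, 20 rose and 1 fell in HN against Control, with a median log2 fold change of 1.22. Among those that rose were Mcm5 of the replicative helicase (2.11 ± 0.12 SE) and Uhrf1, which takes part in copying DNA methylation (3.73 ± 0.20). All 15 genes of G2 and mitosis rose in HN, with a median of 3.002 and the proliferation marker Mki67 at 3.002 ± 0.43. Both medians stand beside -0.326 for the tested histone members, and the difference itself was not tested. In PEC minus HN the medians lay closer, at -0.29 for S phase, -0.14 for mitosis and -0.129 for the histone members. Under total counts alone 24 of the S phase genes rose in HN. In PEC against HN, 1 S phase gene rose and 5 fell (none and 10 under total counts alone), and 1 of the mitosis genes fell, or 2 under total counts alone (Kif11, a spindle motor, at -1.10 ± 0.38). Against Control, 18 S phase genes were higher and 1 lower in PEC, as were 14 mitosis genes higher and none lower by edgeR, with the remaining gene Bub1 at 1.69 ± 0.68 and 15 higher under total counts alone. Summed, the mitosis genes stood at 2.09, 2.63 and 4.39 FPKM in Control, 30.9, 33.6 and 35.3 in HN and at 26.6, 32.1 and 22.1 in PEC, and the S phase genes at 49.9, 53.7 and 50.1, at 117, 116 and 128, and at 79.6, 83.7 and 84.8. Both sums were higher in every HN and PEC library than in any Control library, which held in FPKM for the members Hist1h2bf and Hist1h3d as well. Hist1h2bc, Hist1h2ah, Hist1h4c and Hist2h3c2 were lower in every HN and PEC library than in any Control library. The share of all genes that separate in this way was not counted.

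Replacement histones, most of which are made outside S phase too from polyadenylated mRNAs, ranged widely in level. In Control the means ran from H2afj at 78.2 FPKM to Cenpa at 0.237, and in HN from H3f3a at 103 to Cenpa at 1.19. H1f0 stood at means of 75.6 and 93.35 FPKM in Control and HN. Of 11 genes, 3 rose and 1 fell in HN against Control, or 6 and 1 under total counts alone. H2afx, the histone marked at DNA breaks, rose by 0.66 ± 0.10 SE, H3f3b by 0.65 ± 0.08 and the centromere histone Cenpa by 1.77 ± 0.19, while H2afj fell by 1.14 ± 0.08. H2afj stood at 79.3, 82.0 and 73.3 FPKM in Control, 51.2, 53.8 and 48.7 in HN and at 31.9, 29.0 and 29.2 in PEC, and fell by 1.70 ± 0.08 in PEC against Control. None of the 11 passed in PEC against HN by edgeR, where 2 were lower under total counts alone, and 1 rose and 1 fell in PEC against Control, or 3 and 1 under total counts alone. The 11 genes summed to 354.6, 354.7 and 327 FPKM in Control, 451, 480.1 and 496 in HN and to 359, 349 and 377 in PEC.

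Of 17 genes that transcribe, process or degrade histone mRNA, none passed in HN against Control by edgeR with TMM, whereas 10 were higher under total counts alone. In PEC against HN, 1 rose and 6 fell (none and 6 under total counts alone), among them Npat, the coactivator of histone gene transcription (-1.26 ± 0.10 SE), and Casp8ap2 (-2.00 ± 0.12), which acts with it. Of all genes tested, 13.4% were higher and 15.3% lower in PEC than in HN. The part of transcript length in the falls of these genes was not tested. Npat stood at 2.16, 2.25 and 2.34 FPKM in Control, 4.40, 4.07 and 4.01 in HN and at 1.42, 1.55 and 1.5 in PEC, and PEC was below both other groups. Slbp, which binds the stem-loop shown above, stood at 2.01, 1.76 and 1.70 FPKM in Control, 3.61, 2.99 and 3.22 in HN and at 2.01, 3.48 and 1.88 in PEC. Slbp passed in no comparison under TMM, at 0.31 ± 0.22, -0.20 ± 0.22 and 0.11 ± 0.22, but rose by 0.87 in HN against Control under total counts alone (adjusted p = 0.00775). Against Control, 2 of the 17 were higher and 3 lower in PEC, a balance that turned to 4 higher and 1 lower under total counts alone.

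Of 6 other RNAs known to lack a poly(A) tail, the 3 that could be tested, Rn7sk, Rmrp and Rpph1, were higher in PEC. Of the others, Terc, the telomerase RNA, had 9, 12 and 8 counts in Control, 0, 19 and 8 in HN, with 2, 0 and 0 in PEC, while Rny1 and Rny3 held at most 3 counts in any library. Rn7sk, a regulator of transcription elongation, stood at 2.05, 2.64 and 2.82 FPKM in Control, 3.58, 5.20 and 2.22 in HN and at 18.3, 96.7 and 11.99 in PEC. All 3 rose in PEC against HN and in PEC against Control, Rn7sk by 3.73 ± 0.77 SE and 3.75 ± 0.77, and none passed in HN against Control by edgeR or under total counts alone. The PEC 2 library was the highest for each, as it was for the rRNA share. Of the 37 tested histone members 2 were higher in PEC than in HN, with a median of -0.129 over all and of 0.01 over the 10 tested members that end within 100 bases of the stem-loop. The difference from the RNAs without a tail was not tested. Whether carry-over of RNA without a tail had a part in the rise of Hist1h2bf and Hist1h2bn was not tested, and in PEC 2 they stood at 1.85 and 3.02 FPKM, between 2 and 1.43 in PEC 1 and PEC 3 for the former and above 2.18 and 2.36 for the latter.

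**Figure D5:**
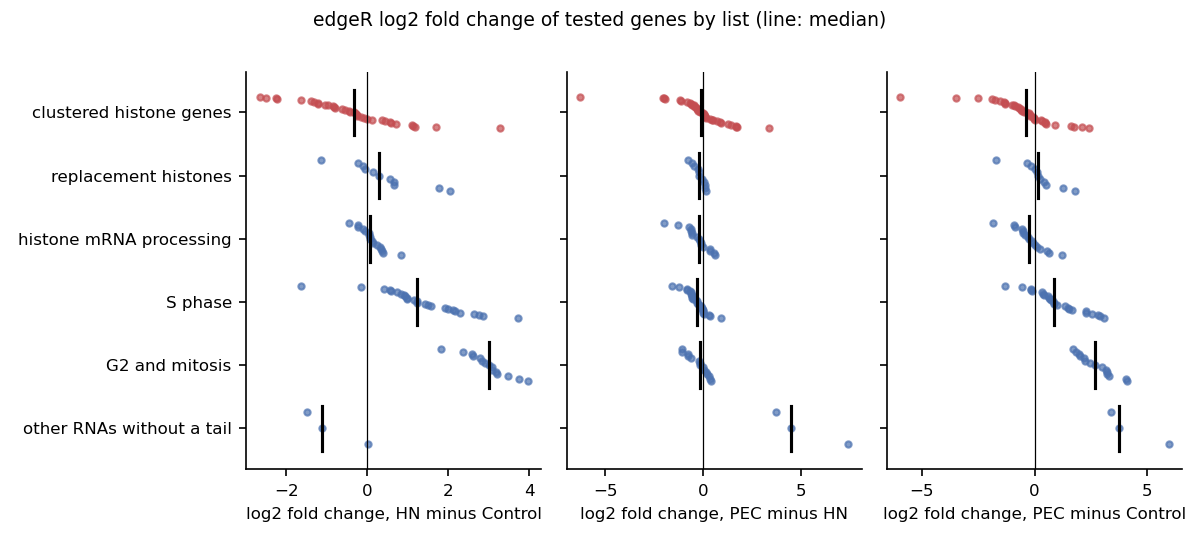
Log2 fold changes of single tested genes (points) and list medians (lines) by edgeR with TMM scaling for the clustered histone genes and 5 other lists. Mitosis genes lie above 0 in HN and PEC against Control, where the histone median lies at -0.33 and -0.38, and total counts alone would raise both by about 0.56 and 0.36.

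Markers of kidney and of other cells also moved with the groups, and their part in the changes of the histone genes was not tested. Of 10 kidney markers, 6 fell in HN against Control (under total counts alone 5 fell and 2 rose), 4 rose in PEC against HN (3 under total counts alone) and 5 were lower in PEC than in Control (4, with 1 higher, under total counts alone). Their sum, led by Kap, was 26890, 26354 and 39666 FPKM in Control, 4772, 6969 and 5949 in HN, with 14337, 19803 and 13372 in PEC. All 7 macrophage markers rose in HN, 6 fell in PEC against HN, and all 7 stayed above Control, with sums of 38.3, 47.1 and 39.0, of 627, 741 and 585.5, and of 210.0, 236 and 336 FPKM, led by C1qa. All 6 T and NK cell markers were higher in HN and PEC than in Control and 1 fell in PEC against HN, or 4 under total counts alone, with sums of 2.73, 3.26 and 2.10, of 12.6, 21.2 and 15.5, and of 8.28, 10.5 and 11.0 FPKM, led by Trac. Of 6 B and plasma cell markers, 3 rose in HN against Control (4 under total counts alone), 1 fell in PEC against HN and 1 was higher in PEC than in Control, with sums of 2.39, 3.72 and 5.69, of 15.7, 31.6 and 30.8, and of 4.17, 4.92 and 3.36 FPKM, led by Jchain. All 5 fibroblast markers rose in HN, 4 fell in PEC against HN and 3 stayed above Control (4 under total counts alone), with sums of 24.7, 23.9 and 17.4, of 147, 158 and 144, and of 74.2, 77.9 and 68.5 FPKM, led by Col1a1.

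Of 5 neutrophil markers, 4 were tested, and 1 (Csf3r) was higher in HN and in PEC than in Control, or 2 in HN under total counts alone, with sums of 6.69, 12.6 and 4.26, of 31.9, 17.6 and 19.8, and of 8.59, 10.1 and 27.8 FPKM, led by S100a9. All 3 tested markers of red cell precursors fell in HN against Control, all 3 rose in PEC against HN, and 2 were lower in PEC than in Control (1 lower and 1 higher under total counts alone), with sums of 187, 172 and 275, of 50.7, 40.2 and 32.8, and of 188, 226 and 214 FPKM, led by Hba-a1. No gene of these 7 marker lists was at 0 in all 9 libraries, although Ly6g of the neutrophil list stayed at or below 0.12 FPKM.

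With 3 libraries a group, only large or steady differences of the histone genes could pass. Poly(A) selection leaves most mRNA that ends at the stem-loop outside the libraries, so that the values describe the polyadenylated or carried-over part and no total amount. All 3 PEC libraries differ from the others in rRNA share and in the spacing of low counts, and for the histone genes treatment and handling cannot be told apart there. Shared sequence makes the level of single members uncertain, most of all in the Hist2 locus. Members below the filter had few counts, and a fit without the filter called the same numbers of members. Protein was not measured.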

How the data were processed

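Poly(A) RNA of mouse kidney was sequenced in 9 libraries of 3 groups. The authors deposited 1 table with counts per gene, whole numbers that were not normalized, and with FPKM values, which they scaled to gene length and library, with sums that differ between libraries. Their notes list Bowtie 0.12.2 and the builds mm8 and mm9 without a role, while the positions in the table are those of GRCm38 and were identical to GENCODE M21 for 51991 of 55144 shared genes and for all 69 members. The counting program, the strand setting and the handling of reads matching several genes are not stated. Members were matched by gene ID to GENCODE M21, since only 9 carry a Hist name in the table. The members and lists were chosen with earlier results of these data known.

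Counts of all genes were filtered with filterByExpr and fitted over the 9 libraries with edgeR 4.0.16 in R 4.3.3 (TMM, glmQLFit and glmQLFTest), leaving 21392 genes. A gene was counted from 1.5-fold up (log2 0.585) if p, adjusted after Benjamini-Hochberg over all tested genes, did not exceed 0.05. Standard errors are the size of the log2 fold change divided by the square root of the test's F. DESeq2 1.42.0 (Wald test) and limma 3.58.1 (eBayes with trend) on log2(FPKM + 1) or log2(FPKM + 0.1), with a mean FPKM of at least 0.5 or 0.1, were alternatives, beside other scalings, filters and thresholds and each library left out. The fits were tested on simulated data, where edgeR and DESeq2 found most of the genes changed on purpose with few false calls, and limma, asked only for abundant genes, did too. The genes changed there were not low, all genes had the same dispersion, and no shift of scaling or peaks of low counts were put in. That test therefore checks the running of the fits and says little on members with few counts. Sums over members, as CPM by total counts, were compared by exact two-sided permutation. Groups are written as mean differences in the order named, HN minus Control for example. Named in the text were the 3 members of highest mean FPKM per class, up to 5 largest rises and 5 largest falls among those passing, genes of the lists and the 10 genes most like the sum. Other genes were named after their values were seen. Transcript features and sequences came from GENCODE M21 transcripts, read with Python 3.11.15. Depth was high enough that counting error was small for abundant members, but not for members with few counts. No file or sample was left out.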

Additional observations from a re-analysis of the deposited data

How the results depend on the processing

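The counts of members per comparison, higher and lower, differed between settings. The limma settings changed the scale, the expression filter and the model at once, so that their moves cannot be put down to any single one. With total counts alone, 4 were higher and 4 lower in HN against Control and 5 lower in PEC against Control. With limma on log2(FPKM + 0.1), 5 were higher and 4 lower in HN against Control, 4 lower in PEC against HN and 4 higher in PEC against Control. With limma on log2(FPKM + 1), 2 were lower in HN against Control, 0 lower in PEC against HN and 4 lower in PEC against Control. With counts divided by 4, edgeR called 0 higher in HN against Control and 0 lower in PEC against HN, and a fit of only the 2 groups called 0 lower in PEC against HN, the genes concerned being below the filter there. At an unadjusted p of at most 0.05 with the same fold limit, edgeR called 1 higher in the former and 1 lower in the latter, as did DESeq2 after adjustment. Among the 9 genes named Hist in the table, of which 4 were tested, edgeR called 0 in every comparison. With each library left out in turn, HN against Control gave 1 to 2 higher and 5 to 8 lower, PEC against HN 1 to 3 higher and 0 to 2 lower, and PEC against Control 2 to 3 higher and 7 to 8 lower. Other planned settings (RLE factors, no mitochondrial or rRNA genes, DESeq2, no filter on low counts, adjusted p alone, unadjusted p) kept each count within 1.5 times. The causes of these differences were not tested. For the sum, TMM-adjusted sizes gave -0.70, 0.0576 and -0.64 for HN minus Control, PEC minus HN and PEC minus Control (log2). Without Hist1h2bc the first was 0.10 and the last -0.0756. Only members with a stem-loop and no transcript over 100 bases past it gave 0.42 for PEC minus HN and 0.31 for PEC minus Control, and without the 4 Hist2 genes -0.28 and -0.40. With Gm20632, Gm20633 and Gm20634 the first was -0.32 and the last -0.46. The 9 genes named Hist gave 0.47 for PEC minus HN and 0.32 for PEC minus Control. With each library left out, the differences ran from -0.21 to -0.07, from -0.21 to -0.07 and from -0.35 to -0.23. The steps that concern the Hist2 genes, the noncoding genes, the 9 names and the division by 4 were chosen after seeing the data. No paired analysis was possible because the groups share at most 1 replicate number and no label pairs the mice. Of the 69 members, 32 had too few counts to test, and the part of depth in this was not tested.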

Other observations

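Small RNAs without a poly(A) tail, taken by their annotated class, were mostly at or near 0. Of 1383 snRNA genes 21 were tested, and 11 rose in PEC against HN (with 1 lower under total counts alone), as 11 did in PEC against Control with 1 lower, while 0 passed in HN against Control by edgeR under either scaling. The snRNA gene Gm22317 had no counts in Control and HN and stood at 7.12, 25.6 and 3.88 FPKM in PEC. Of 1507 snoRNA genes 75 were tested, with 1 higher and 1 lower in HN against Control, 11 higher and 1 lower in PEC against HN and 16 higher and 1 lower in PEC against Control. Under total counts alone these were 6 and 0, 5 and 1, and 23 and 1. Of 51 scaRNA genes 4 were tested and 0 passed in any comparison by edgeR under either scaling, with Gm22009, the most abundant, at 6.59, 3.88 and 3.58 FPKM in Control, 2.97, 4.70 and 1.75 in HN and at 6.73, 6.43 and 4.36 in PEC. Of 354 rRNA genes 2 were tested, and CT010467.1, which held 1912, 1824 and 1231 counts in Control, 1374, 2240 and 1493 in HN, with 87283, 447100 and 68580 in PEC, rose against both other groups. The other rRNA gene, Gm26280, stood at 0.73 ± 0.75 SE in PEC minus HN (log2).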
